A study of Mus musculus with 15 samples.

Results

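The 38 genes described here encode the tubulins and the proteins that bind, cap, cut, modify or fold them. They were chosen by name: every probe whose gene name, current or older, was on a list of 5 alpha tubulins, 5 beta tubulins, 4 gamma, delta and epsilon tubulins, 6 structural microtubule-associated proteins, 9 tip and end-binding proteins, 2 severing enzymes, 2 tubulin-modifying enzymes and 5 tubulin-folding cofactors. The rule used names and no measured value, but the list was drawn up with earlier results of these data known. The list took 76 of the 41174 probes on the array. All 38 genes had at least 1 probe bright enough to test, among 18710 such genes in all.

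RNA came from mouse embryonic fibroblasts, which are primary cells grown out of embryos, here of C57B6 background at 13.5 days post coitum. The cells were at passage 3, had grown to high confluence and had been without serum for 24 h before lysis. Wild type, p27 knock-out and stathmin knock-out cells had 4 arrays each, and cells lacking both p27 and stathmin, the double knock-out, had 3. Each array compared 1 sample, in Cy5, with a common reference RNA from pooled fibroblasts of the same background and stage, in Cy3, and dyes were not swapped. Replicate arrays are described as biological, without saying which cultures or embryos stand behind each, and each lies on 1 of 4 slides that hold most genotypes. Every level below is a log2 ratio of sample over reference, so that 0 means equal to the pool and 1 means 2-fold above it, and a difference is the mean of 1 genotype minus the mean of another on that scale.

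Microtubules are hollow polymers of alpha and beta tubulin dimers that grow and shrink from their ends. Stathmin, made from Stmn1, binds free tubulin dimers and promotes shrinkage, while p27, made from Cdkn1b, inhibits cyclin-dependent kinases and also binds stathmin. Cells are known to lower tubulin messenger RNAs when free tubulin dimers rise, which makes the tubulin genes a readout often looked at where a tubulin-binding protein is lost.

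A probe of Stmn1 checked the labels. It stood at 0.64 to 0.87 on the wild-type arrays, at -2.98 to -2.64 on the stathmin knock-out arrays and at -2.82 to -2.68 on the double knock-out arrays, 11.6-fold and 11.5-fold below wild type (adjusted p over probes 1.75e-06 and 5.01e-06 by limma). A second, brighter Stmn1 probe differed from wild type by -0.41 (SE 0.29, adjusted p over probes 0.916) in the stathmin knock-out and by -0.14 (SE 0.31, adjusted p over probes 1) in the double knock-out. Cdkn1b, the gene of p27, was at -0.56 relative to wild type in the p27 knock-out (SE 0.36, adjusted p over probes 0.799) and at -0.97 in the double knock-out (SE 0.39, adjusted p over probes 1). In the stathmin knock-out it was at -0.30 (SE 0.36, adjusted p over probes 0.939). The Cdkn1b probe therefore did not settle the p27 labels. Which part of either gene was deleted is not given in the sources used here. Of 13 fibroblast markers, 13 were above background on all 15 arrays, as were 10 of 11 macrophage, 7 of 11 epithelial, 5 of 8 glial, 5 of 9 muscle and 4 of 14 neuronal markers. Gad1, a neuronal marker, was above background on no array. Between 59.3 and 78.9% of the spots of an array were above background in the sample channel. Arrays 3 and 4 of wild type were closer to each other, at a correlation of 0.837, than any other arrays of 1 genotype (-0.22 to 0.58). Array 2 of the p27 knock-out stood apart in having the highest mean ratio of 13 fibroblast markers (1.57) and of 11 macrophage markers (2.43, against -2.98 to 1.46 on the other arrays).

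No member passed an adjusted p under 0.05 in any of the 8 comparisons made with limma. The background was equally low, since the same rule took 0% of all genes in the p27 knock-out, 0.00535% in the stathmin knock-out and 0% in the double knock-out, each against wild type, and 0% in the double knock-out against either single knock-out. It took 0% in the interaction, 0.00535% for loss of stathmin averaged over p27 status and 0% for loss of p27 averaged over stathmin status. The 3 comparisons with wild type share its 4 arrays, so their values for a gene are given side by side and are not independent. Because whole cultures were measured, a lower level cannot tell fewer cells that make an RNA from less of it in each cell.

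**Figure D1:**
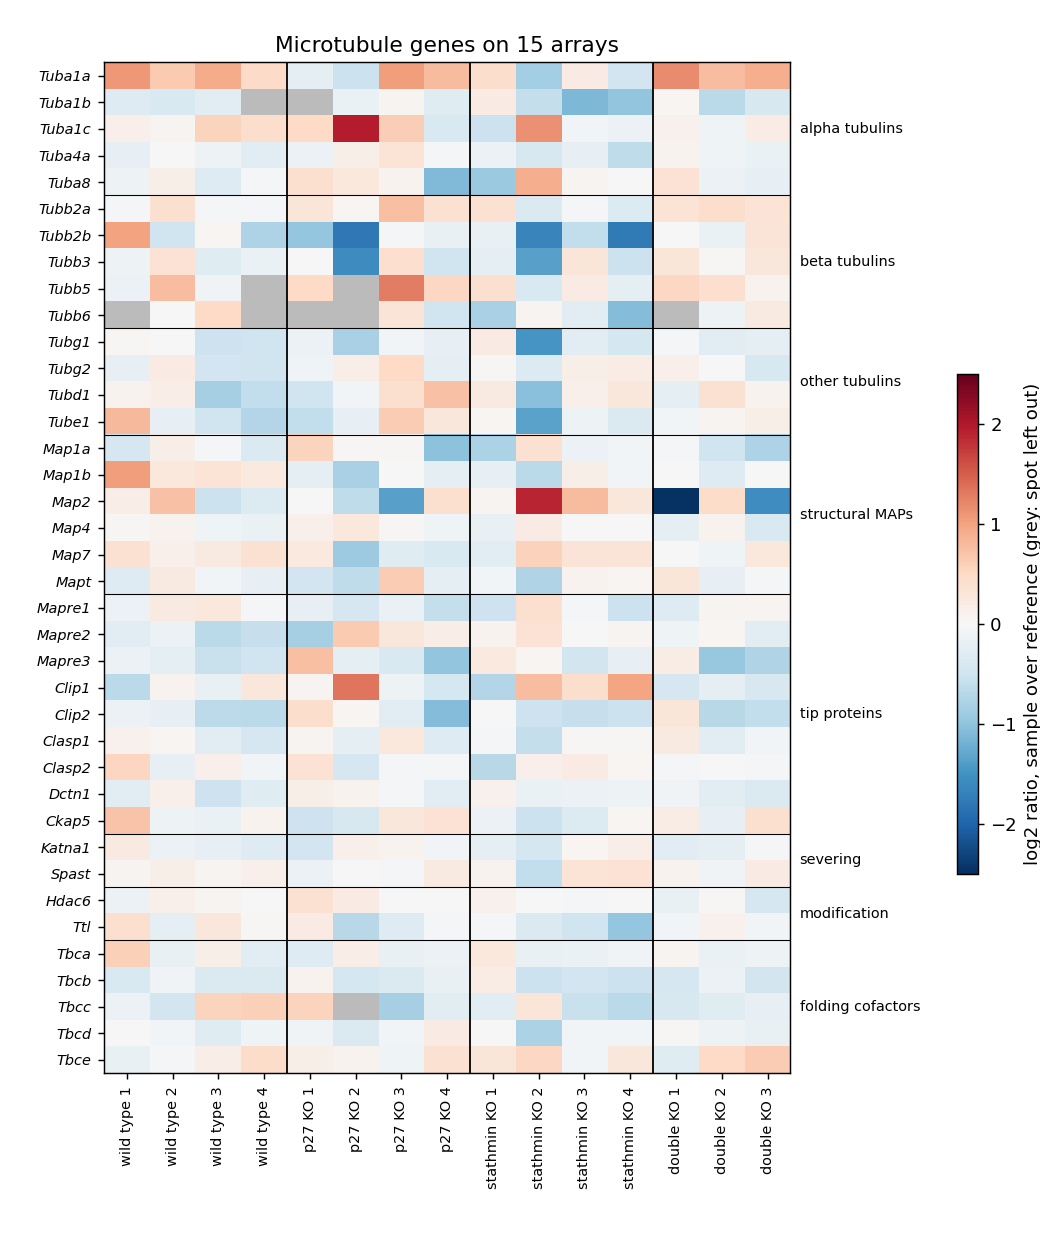
Log2 ratio of sample over reference for the 38 microtubule genes (rows, by role) on each of the 15 arrays (columns, by genotype), with the colour scale running from -2.5 (blue) to 2.5 (red). Grey cells are spots left out as outliers, and Map2 spans the widest range, from -2.48 to 1.91.

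The precision differed between roles. The spread between arrays of 1 genotype, as a pooled SD, had a median of 0.37 over the 38 members and of 0.32 over all genes. It was lowest for Hdac6 (0.155), a cytoplasmic deacetylase that acts on alpha tubulin, and for Map4 (0.16), the main structural microtubule-associated protein outside neurons. The widest spread was that of Map2 (0.92), followed by Tubb2b (0.72) and Tuba1c (0.65). Of the alpha and beta tubulins, 4 of 5 in each group spread more than the median gene, against 1 of 5 folding cofactors and 0 of 2 severing enzymes. With this spread, the 95% interval of the difference from wild type lay within a 2-fold change either way for 25 of 38 members in the p27 knock-out, 26 in the stathmin knock-out and 27 in the double knock-out. Tuba1c, Tubb2b, Tubb3, Tubb6, Map1b, Map2, Clip1 and Tbcc had intervals that reached past a 2-fold change in all 3. Of these, Map1b had a spread near that of the median gene (0.33). Its differences themselves were far from 0, at -0.79, -0.67 and -0.58 in the p27, stathmin and double knock-outs.

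**Figure D2:**
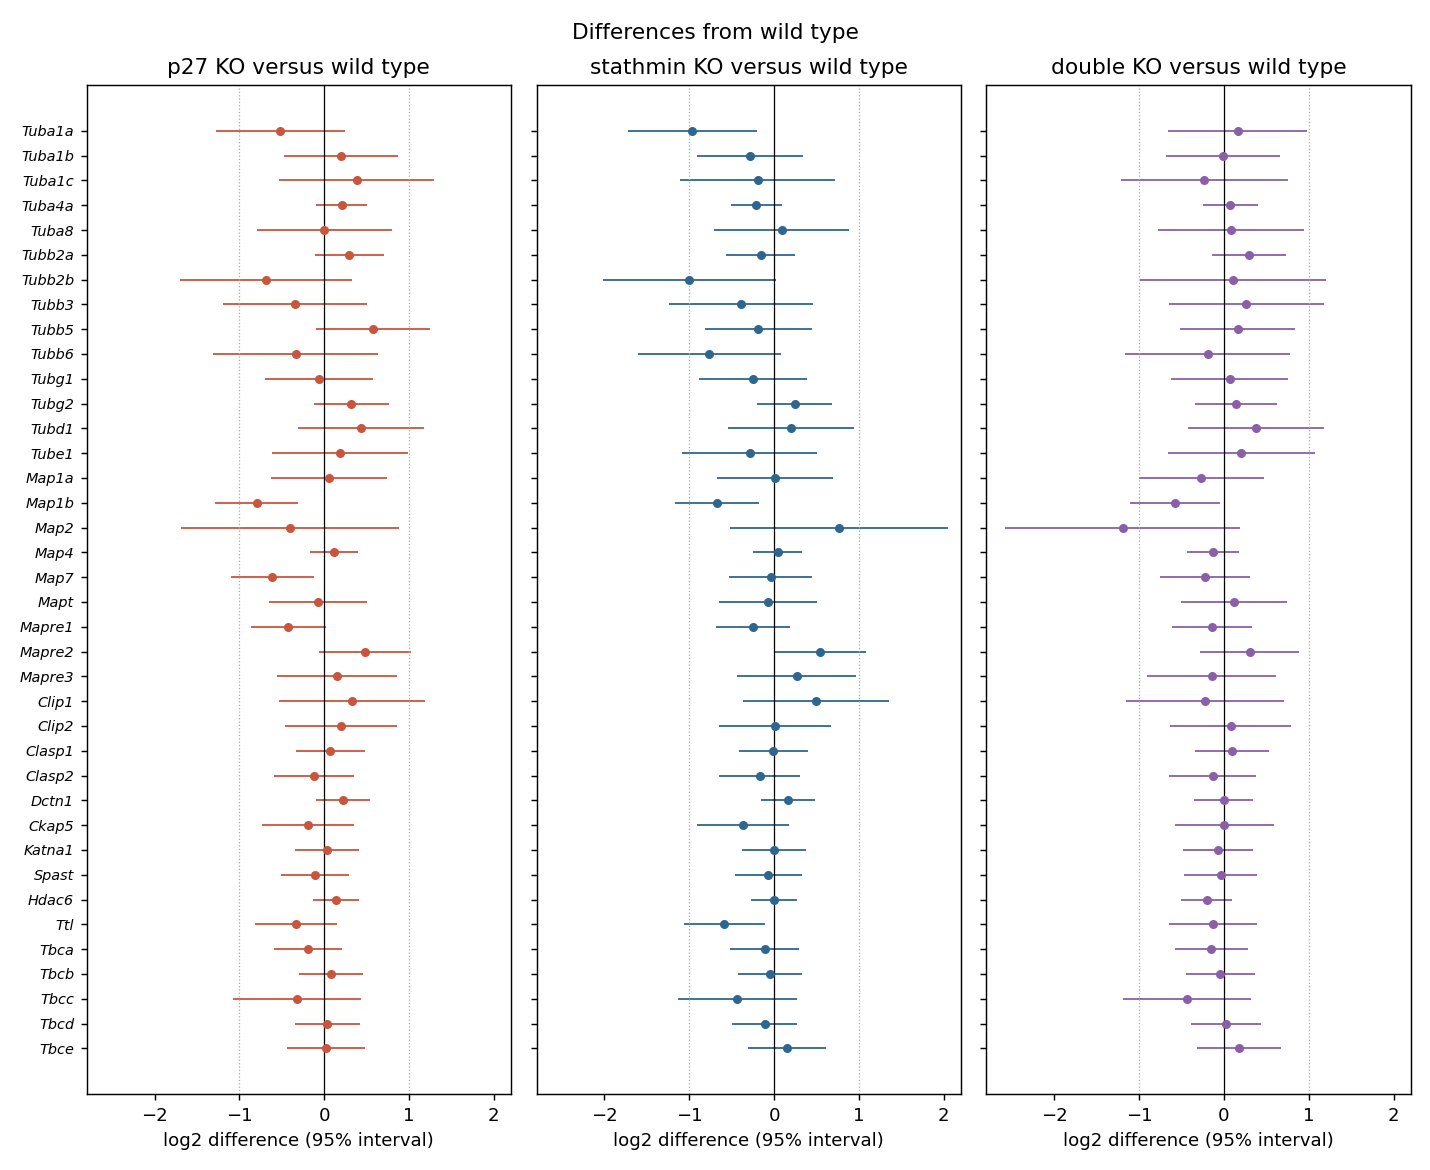
Difference in log2 ratio from wild type for each of the 38 members (points) with its 95% interval from limma (bars), in the p27, stathmin and double knock-outs; dotted lines mark a 2-fold change. Map1b is the member whose interval lies below 0 in all 3 panels, and none passed an adjusted p under 0.05.

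The regions upstream of 3 genes are shown because these had the smallest p among members in the stathmin knock-out: Map1b, a structural microtubule-associated protein best known from growing neurites, Tuba1a, an alpha tubulin, and Ttl, the ligase that puts tyrosine back on the end of alpha tubulin. Each line gives the 250 bases before the RefSeq start of the gene in GRCm38.p6, 5′ to 3′ on the gene's strand, at chr13:99516603-99516852 on the minus strand for Map1b, chr15:98953502-98953751 on the minus strand for Tuba1a and chr2:129065697-129065946 on the plus strand for Ttl. Capitals mark matches on either strand to 3 short promoter motifs. These are the CCAAT box, the TATA box in the form TATAAA, and the GC box core GGGCGG, and no matches overlap in these windows.
Map1b: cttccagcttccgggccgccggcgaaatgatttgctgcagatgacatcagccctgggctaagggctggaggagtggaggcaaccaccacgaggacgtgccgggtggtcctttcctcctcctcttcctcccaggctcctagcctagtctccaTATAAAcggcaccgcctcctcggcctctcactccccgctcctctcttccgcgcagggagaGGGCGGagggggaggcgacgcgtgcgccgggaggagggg
Tuba1a: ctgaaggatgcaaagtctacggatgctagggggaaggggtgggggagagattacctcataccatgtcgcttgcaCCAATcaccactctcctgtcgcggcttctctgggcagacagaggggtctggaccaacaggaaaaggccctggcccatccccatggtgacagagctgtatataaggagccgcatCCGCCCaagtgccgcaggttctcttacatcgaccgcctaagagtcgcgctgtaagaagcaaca
Ttl: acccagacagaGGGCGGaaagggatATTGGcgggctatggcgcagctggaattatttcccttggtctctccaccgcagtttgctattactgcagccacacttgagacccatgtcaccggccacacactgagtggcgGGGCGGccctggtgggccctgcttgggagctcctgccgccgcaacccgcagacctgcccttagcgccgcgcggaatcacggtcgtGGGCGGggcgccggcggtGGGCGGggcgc
Of these motifs, GGGCGG was in all 3 windows, with 1 match in Map1b, 1 in Tuba1a and 4 in Ttl, while CCAAT was in those of Tuba1a and Ttl and TATAAA in that of Map1b. Of the 31 members with such a window in RefSeq, 21 (67.7%) held GGGCGG, against 35.4% of the windows of 27025 genes. CCAAT was in 14 (45.2%, against 37.5% of all genes) and TATAAA in 4 (12.9%, against 14.3%). The 27025 genes were not limited to those bright enough to test, which the members were. A match is a string of letters and not a measured binding site.

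Among the alpha tubulins, the differences that stood out most were those of Tuba1a (chr15:98949847-98953501, GRCm38.p6). Its ratio was 1.08, 0.66, 0.94 and 0.49 on the wild-type arrays and 0.43, -0.86, 0.20 and -0.48 on the stathmin knock-out arrays. On the p27 knock-out arrays it was -0.22, -0.54, 1.05 and 0.79, and on the double knock-out arrays 1.17, 0.78 and 0.91. All 4 stathmin knock-out arrays lay below all wild-type and all double knock-out arrays, while the p27 knock-out arrays fell into both ranges. Wild-type arrays averaged 0.79 ± 0.27 (SD, n = 4), stathmin knock-out arrays -0.17 ± 0.60 (n = 4) and double knock-out arrays 0.95 ± 0.20 (n = 3). The difference from wild type was -0.96 in the stathmin knock-out (SE 0.35, adjusted p = 0.907), and that between double and stathmin knock-out was 1.13 (SE 0.38, adjusted p = 1). The interaction, which asks whether losing both proteins differs from the sum of the single losses, was 1.65 (SE 0.52, unadjusted p = 0.00714, adjusted p = 0.652). Within each of the 4 slides, the stathmin knock-out array was below the wild-type array, by -0.64, -1.51, -0.74 and -0.96.

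The reference channel, which held the same pooled RNA on every array, moved with these Tuba1a ratios. Its Tuba1a signal, before any normalization, was 72400 to 121000 units on the wild-type arrays and 117000 to 184000 on the stathmin knock-out arrays, against 317000 to 403000 and 220000 to 367000 in the sample channel. After normalization the stathmin knock-out differed from wild type by -0.40 in the sample channel (SE 0.19) and by 0.57 in the reference channel (SE 0.21). In the sample channel alone the interaction was 0.72 (adjusted p = 0.747) and the difference between double and stathmin knock-out 0.52. The part of the reference channel in the Tuba1a difference was not tested. Without array 2 of the p27 knock-out, the difference of 0.68 between double and p27 knock-out was 0.41.

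The other 4 alpha tubulins had smaller differences in the stathmin knock-out. Tuba1b and Tuba1c, its neighbours on chromosome 15, differed from wild type there by -0.29 and -0.19, Tuba4a by -0.21 and Tuba8 by 0.09. Tuba1c was highest on 2 arrays where Tuba1a was lowest, at 1.97 on array 2 of the p27 knock-out and 1.14 on array 2 of the stathmin knock-out, with -0.54 to 0.61 on the remaining 13. Before normalization the Tuba1c reference signal was lowest on these 2 arrays, at 51900 and 80100 units, against 91100 to 164000 on the others. The sample signal was highest there, at 441000 and 406000 units, against 210000 to 386000. The part of the reference channel in these 2 ratios was not tested. Tuba1b had the smallest range in wild type, -0.39 to -0.27 on 3 arrays, and went from -1.12 to 0.21 in the stathmin knock-out. Its spots on 2 arrays, wild type 4 and p27 knock-out 1, were left out as outliers. Tuba4a was higher by 0.25 when p27 loss was averaged over stathmin status (SE 0.10, adjusted p = 1), or by 0.14 as the mean of its 3 probes. Over the 7 arrays without p27 it ran from -0.16 to 0.33, and over the 8 with p27 from -0.63 to 0.01. The alpha tubulins of near-identical sequence can share signal on a probe, so their single values are uncertain.

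The beta tubulins lay on one side of 0 in the stathmin knock-out. All 5 had a mean below wild type (median -0.39), and all 5 had a mean above the stathmin knock-out in the double knock-out (median 0.57). These signs were the same under 5 other scalings: no background correction, the scanner software's ratio, median centring, the authors' deposited values and the sample channel alone. They rest on the brightest probe of each gene: a second tested probe of Tubb6 had the opposite sign, at 0.23 in the stathmin knock-out against wild type (SE 0.25) and -0.09 in the double against the stathmin knock-out (SE 0.27). The background for such signs was 48.1% of all genes below 0 in the stathmin knock-out and 49.1% above 0 in the double against the stathmin knock-out. In the p27 knock-out 3 of 5 were below wild type (47.3% of all genes) and in the double knock-out 1 of 5 (50.7% of all genes).

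Tubb2b (chr13:34127008-34130354, GRCm38.p6), a beta tubulin abundant in the developing nervous system, had the largest of these differences. It was at 1.01, -0.51, 0.05 and -0.77 in wild type, -0.96, -1.79, -0.02 and -0.19 in the p27 knock-out, and -0.19, -1.65, -0.61 and -1.76 in the stathmin knock-out. In the double knock-out it was at 0.00, -0.17 and 0.33. The double knock-out arrays lay above all 4 stathmin knock-out arrays but inside the range of wild type. The difference from wild type was -0.998 in the stathmin knock-out (SE 0.47, adjusted p = 0.907), and it was 1.10 between double and stathmin knock-out (SE 0.51, adjusted p = 1). The interaction was 1.79 (SE 0.69, unadjusted p = 0.0229, adjusted p = 0.652). In the sample channel alone it was 1.71 and in the reference channel -0.08.

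Tubb2a, which lies near Tubb2b on chromosome 13, spread less between arrays of a genotype (pooled SD 0.265, against 0.723 for Tubb2b). It was at -0.04, 0.41, -0.03 and -0.04 in wild type, 0.30, 0.05, 0.76 and 0.38 in the p27 knock-out, 0.38, -0.35, -0.02 and -0.34 in the stathmin knock-out and 0.35, 0.43 and 0.33 in the double knock-out. The 2 genotypes without p27 held the higher values, and the groups overlapped. Loss of p27 averaged over stathmin status gave 0.38 (SE 0.14, unadjusted p = 0.0168, adjusted p = 1), and the double against the stathmin knock-out gave 0.46 (SE 0.20, adjusted p = 1). Its other 2 tested probes gave 0.33 and 0.25 for the averaged loss of p27. The value of 0.25 rests on 1 wild-type array and 3 p27 knock-out arrays, since the other spots were left out as outliers.

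Tubb5, the most widely expressed beta tubulin, was at -0.14, 0.77 and -0.08 on 3 wild-type arrays, 0.49, 1.28 and 0.51 on 3 p27 knock-out arrays, 0.40, -0.38, 0.21 and -0.24 in the stathmin knock-out and 0.51, 0.42 and 0.10 in the double knock-out. Wild type 4 and p27 knock-out 2 were left out here as outliers. Loss of stathmin averaged over p27 status gave -0.30 (SE 0.21, adjusted p = 1), -0.15 without wild type 2 and -0.17 without p27 knock-out 3, and -0.18 as the mean of its 2 probes. Tubb3, used as a neuronal beta tubulin marker, was lowest on array 2 of the p27 knock-out (-1.57) and array 2 of the stathmin knock-out (-1.35) and at or above -0.54 on the other 13. Tubb6 had 5 of 15 spots left out, which leaves 2 wild-type arrays behind its difference of -0.77 in the stathmin knock-out (SE 0.37, adjusted p = 0.907).

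**Figure D3:**
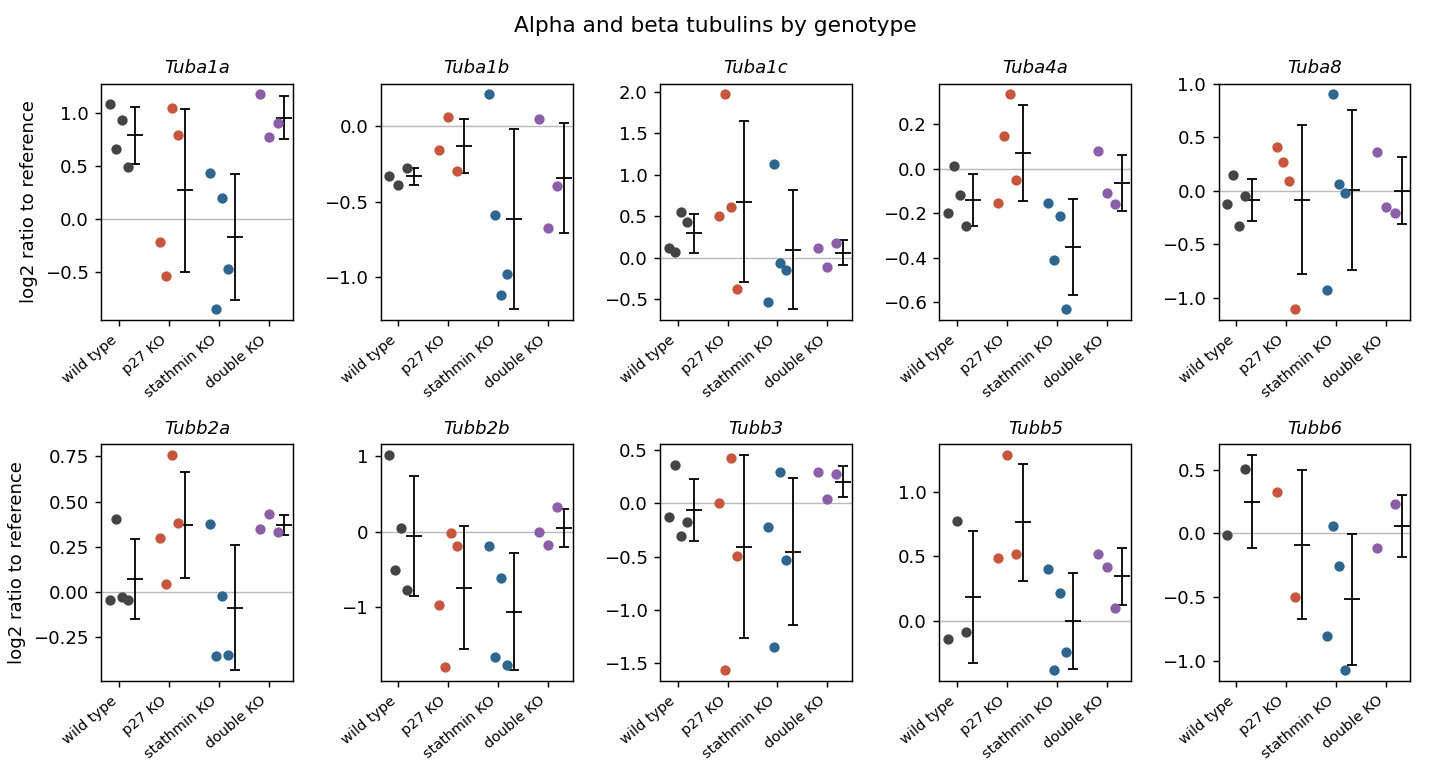
Log2 ratio of sample over reference for each alpha and beta tubulin (panels) by genotype; points are arrays and bars the mean ± SD. In the stathmin knock-out the 4 Tuba1a points lie below every wild-type and double knock-out point, while Tuba1c has single high points at 1.97 and 1.14.

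The lowest beta tubulin values were on 3 arrays, on which a list of 20 mitosis genes was also lowest. With outlier-marked spots kept, so that every array holds all 5 genes, the beta tubulins averaged -0.83 on array 2 of the p27 knock-out, -0.73 on array 2 and -0.79 on array 4 of the stathmin knock-out, and between -0.15 and 0.55 on the other 12. Without the marked spots the first of these means was -1.10, from the 3 genes left. The mitosis genes averaged -0.92, -1.55 and -0.70 on those 3 arrays and -0.44 to 0.78 on the others. In the stathmin knock-out all 20 mitosis genes had means below wild type (median -0.70, 0 called) and in the double knock-out all 20 lay above the stathmin knock-out (median 0.69, 0 called). Their part in the tubulin values was not tested. The 5 alpha tubulins averaged 0.34, 0.04 and -0.45 on the same 3 arrays. Arrays 1 and 3 of the stathmin knock-out had beta tubulin means of -0.09 and -0.08, inside the wild-type range of -0.15 to 0.20.

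**Figure D4:**
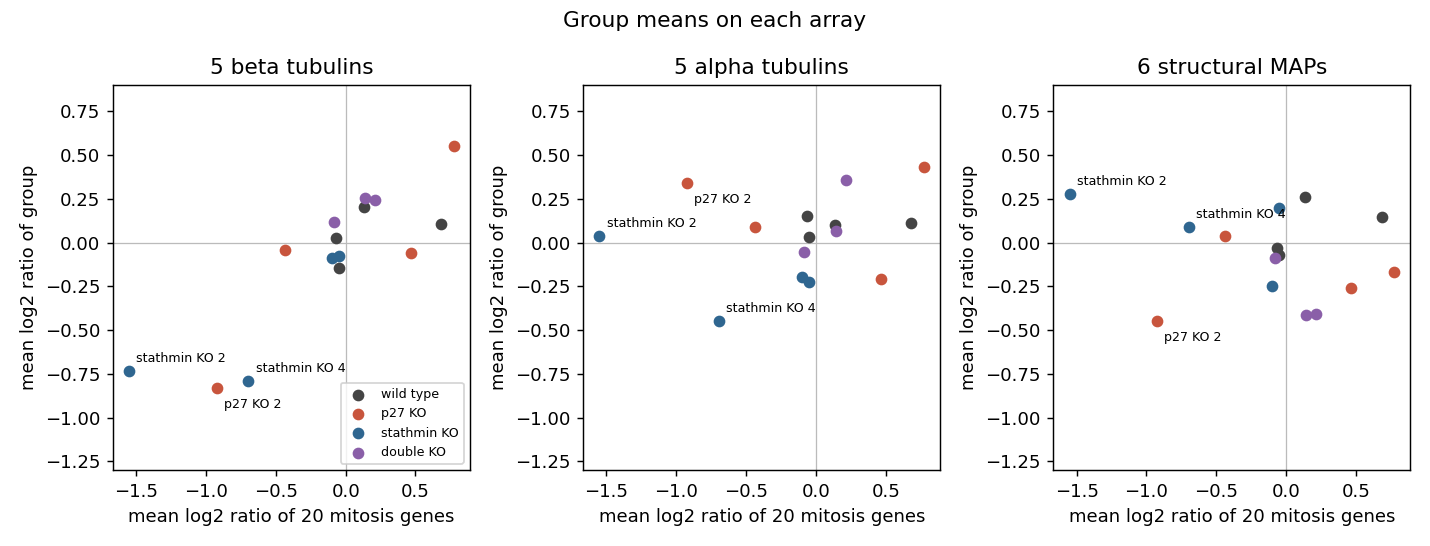
Mean log2 ratio of the 5 beta tubulins, the 5 alpha tubulins and the 6 structural microtubule-associated proteins (vertical axes) against the mean of 20 mitosis genes (horizontal axes), with outlier-marked spots kept; each point is an array, coloured by genotype. The 3 named arrays have beta tubulin means of -0.83, -0.73 and -0.79 and the lowest mitosis means.

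The gamma, delta and epsilon tubulins, which nucleate microtubules or serve centrioles, had no difference from wild type beyond 0.43. Tubg1, Tubg2, Tubd1 and Tube1 differed from wild type by -0.06 to 0.43 in the p27 knock-out, -0.29 to 0.24 in the stathmin knock-out and 0.07 to 0.38 in the double knock-out. None had an unadjusted p under 0.05 in any of the 8 comparisons. Array 2 of the stathmin knock-out had the lowest value of Tubg1 (-1.47), Tubd1 (-1.04) and Tube1 (-1.34) among all 15 arrays.

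Map1b (chr13:99421464-99516602, GRCm38.p6) was the member whose groups were most clearly apart. It was at 1.05, 0.26, 0.33 and 0.24 in wild type, -0.22, -0.81, -0.02 and -0.25 in the p27 knock-out, -0.21, -0.67, 0.14 and -0.06 in the stathmin knock-out and -0.01, -0.31 and 0.01 in the double knock-out. All 11 knock-out arrays lay below all 4 wild-type arrays. This was so for 22 of 18710 genes (0.118%), with 0.0962% above, and for Map1b it held under all 5 other scalings, including the sample channel alone. The difference from wild type was -0.79 in the p27 knock-out (SE 0.23, unadjusted p = 0.00387, adjusted p = 0.796). It was -0.67 in the stathmin knock-out (SE 0.23, adjusted p = 0.907) and -0.58 in the double knock-out (SE 0.25, adjusted p = 1).

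The interaction for Map1b was 0.89 (SE 0.33, unadjusted p = 0.0194, adjusted p = 0.652), or 1.65 with the scanner software's ratio. Within slides 1 to 4 the p27 knock-out differed from wild type by -1.27, -1.07, -0.35 and -0.49 and the stathmin knock-out by -1.26, -0.94, -0.19 and -0.30. Wild type 1 carried part of the size. Without it the double knock-out difference was -0.38. The Map1b reference signal on wild type 1, before normalization, was 166 units, against 229 to 271 on the other arrays. Its sample signal of 251 units was the lowest of wild type. In the normalized sample channel alone, on the log2 scale, wild type ran from 8.22 to 8.43 and the knock-outs from 7.15 to 8.15. The part of the reference channel was not tested. The scanner software's own ratio gave -1.44, -1.22 and -1.01 for the 3 knock-outs. The mean of 8 epithelial markers tested, of 11 listed, was also higher in wild type. It was 0.09 to 0.57 on the wild-type arrays and -1.05 to 0.08 on the knock-out arrays, the nearest being 0.085 and 0.076. Within wild type, array 1 was highest in Map1b and lowest in the mean of these markers. Of these 8, 7 were below wild type in the p27, 7 in the stathmin and 8 in the double knock-out, with 0 called, while Epcam and Cdh1 were above background on 1 and 6 of 15 arrays and were not tested. For 9 neuronal markers tested, of 14 listed, the mean was -0.15 to -0.01 on the wild-type arrays. It was -0.56 to -0.14 in the p27, -0.55 to -0.13 in the stathmin and -0.12 to 0.01 in the double knock-out. The part of epithelial or neuronal cells in the Map1b values was not tested. Map1b has 1 probe, and it was dim. Its sample signal before normalization was 251 to 342 units in wild type and 152 to 339 in the knock-outs, which overlap, and it was not well above background on 1 p27 knock-out array.

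Map2, a structural protein of dendrites, varied most of all members. It was at 0.16, 0.72, -0.54 and -0.33 in wild type, -0.01, -0.63, -1.35 and 0.41 in the p27 knock-out, 0.07, 1.91, 0.79 and 0.29 in the stathmin knock-out, and -2.48, 0.47 and -1.56 in the double knock-out. Arrays 1 and 3 of the double knock-out were the lowest of all 15, while array 2 lay inside the wild-type range. The difference from wild type was -1.20 in the double knock-out (SE 0.64, adjusted p = 1), or -0.55 without double knock-out 1 and -2.03 without double knock-out 2. On the 3 slides that hold both it was -2.64, 1.004 and -1.23. Between double and stathmin knock-out it was -1.96 (SE 0.64, unadjusted p = 0.00926, adjusted p = 1), and for loss of p27 averaged over stathmin status -1.18 (SE 0.44, adjusted p = 1). A second, dimmer Map2 probe gave -0.15, -0.41 and -0.25 for the same comparisons. On that probe array 2 of the stathmin knock-out was again highest (0.66), and arrays 3 of the p27 and 1 of the double knock-out were again low (-0.35 and -0.33), but array 3 of the double knock-out was at -0.08.

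Map7, which recruits kinesin-1 to microtubules, was at 0.37, 0.12, 0.23 and 0.38 in wild type and 0.25, -0.91, -0.31 and -0.37 in the p27 knock-out, with 3 of 4 knock-out arrays below all wild-type arrays. The difference was -0.61 (SE 0.23, unadjusted p = 0.0181, adjusted p = 0.796), against -0.04 in the stathmin and -0.22 in the double knock-out. The scanner software's ratio gave -0.93, and leaving out 1 array at a time gave -0.81 to -0.42. The lowest Map7 value, -0.91, was on array 2 of the p27 knock-out. The Map7 probe was dim, with a sample signal of 170 to 510 units before normalization. Map4 differed from wild type by 0.11, 0.04 and -0.13 in the p27, stathmin and double knock-outs. Between double and p27 knock-out it gave -0.24 (SE 0.14, adjusted p = 1), from -0.22, 0.09 and -0.38 against 0.12, 0.26, 0.02 and -0.10. That value was -0.14 without double knock-out 3 and -0.37 without double knock-out 2, and its 3 other tested probes gave 0.06, -0.04 and 0.21. Map1a and Mapt, the gene of tau, had no unadjusted p under 0.05 in any comparison.

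In the p27 knock-out 2 structural proteins, Map1b and Map7, had an unadjusted p under 0.05 with lower values, a call that took 3.14% of all genes, and no member was higher (2.58% of genes). Map1b and Mapre1 were the 2 members whose p27 knock-out arrays all lay below wild type, as did 1.36% of genes, and none lay above it (1.16%). In the stathmin knock-out the 3 members lower at that threshold were Map1b, Tuba1a and Ttl (2.79% of genes), with none higher (1.97%). Map1b and Tuba1a had all their arrays below wild type there (1.64% of genes). Map1b was the 1 member so called in the double knock-out (1.25% of genes lower, 1.08% higher), where its arrays all lay below wild type, as for 3.67% of genes, and no member's all lay above (3.03%).

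Tip proteins ride on growing microtubule ends. Mapre1 encodes EB1, the core end-binding protein, and was at -0.14, 0.23, 0.27 and -0.06 in wild type, -0.20, -0.43, -0.16 and -0.60 in the p27 knock-out, -0.53, 0.40, -0.05 and -0.53 in the stathmin knock-out and -0.31, 0.06 and 0.06 in the double knock-out. All 4 p27 knock-out arrays were below all wild-type arrays, the nearest being -0.16 against -0.14. The difference was -0.42 (SE 0.20, unadjusted p = 0.058, adjusted p = 0.796). Its 2 other probes gave -0.43 and -0.22.

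Mapre2 encodes the related EB2. It was at -0.26, -0.14, -0.68 and -0.57 in wild type and 0.08, 0.36, 0.00 and 0.06 in the stathmin knock-out, where every array lay above wild type, as for 1.56% of genes. The difference was 0.54 (SE 0.25, unadjusted p = 0.0522, adjusted p = 0.907), against 0.48 in the p27 knock-out, where 3 of 4 arrays were above wild type, and 0.30 in the double knock-out. A second probe gave 0.21 for the stathmin knock-out, at 0.16, 0.31, -0.26 and -0.40 against -0.51, -0.15, -0.14 and -0.21 in wild type, and overlapped. Mapre3, the third end-binding protein, differed from wild type by 0.15, 0.27 and -0.14 in the p27, stathmin and double knock-outs.

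Clip1 encodes CLIP-170, which tracks growing ends, and spread more than the other tip proteins (pooled SD 0.61). It was at 1.34 on array 2 of the p27 knock-out, at 0.77, 0.45 and 0.98 on arrays 2, 3 and 4 of the stathmin knock-out and at -0.73 to 0.28 on the rest. The differences from wild type were 0.33, 0.49 and -0.23 in the p27, stathmin and double knock-outs, and its 3 probes differed in sign for the first 2. Clip2, Clasp1, Clasp2, Dctn1 and Ckap5, which stabilise, anchor or polymerise ends, differed from wild type by -0.37 to 0.22 in the 3 knock-outs. The lowest of these values was that of Ckap5 in the stathmin knock-out, and none had an unadjusted p under 0.05 in any comparison.

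**Figure D5:**
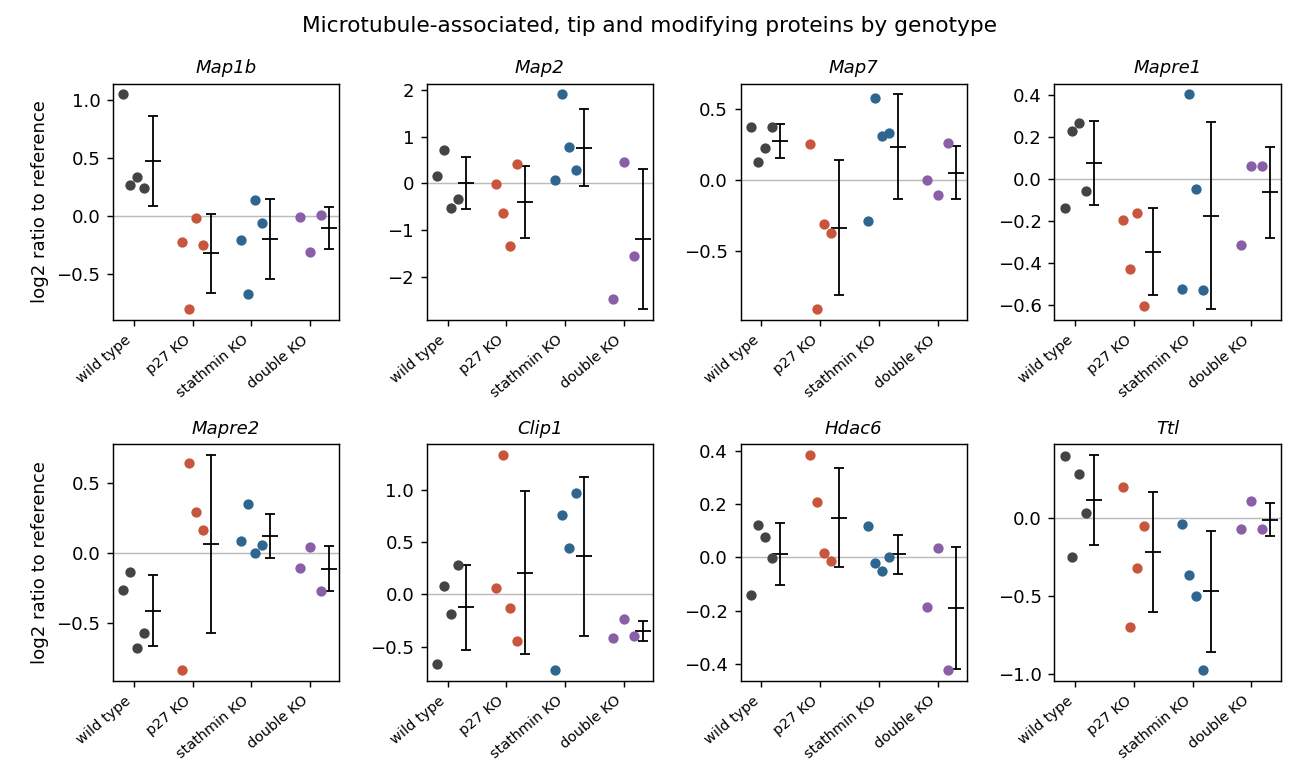
Log2 ratio of sample over reference for 8 microtubule-associated, tip and modifying proteins (panels) by genotype; points are arrays and bars the mean ± SD. Every knock-out point of Map1b lies below the wild-type points (0.24 to 1.05), and the vertical scale differs between panels.

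Severing enzymes cut microtubules along their length. Katna1, the catalytic subunit of katanin, and Spast, which encodes spastin, differed from wild type by -0.11 to 0.03 in the 3 knock-outs, with 95% intervals inside a 2-fold change in each.

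Of the modifying enzymes, Ttl was at 0.40, -0.25, 0.28 and 0.03 in wild type and -0.04, -0.36, -0.50 and -0.98 in the stathmin knock-out. Of those 4 arrays, 3 lay below all wild-type arrays. The difference was -0.58 (SE 0.22, unadjusted p = 0.021, adjusted p = 0.907), against -0.33 in the p27 and -0.13 in the double knock-out. Within slides 1 to 4 the Ttl difference was -0.44, -0.12, -0.78 and -1.005. Its second probe gave -0.11, and the mean of both -0.35. The interaction for Ttl was 0.79 (SE 0.33, unadjusted p = 0.0313, adjusted p = 0.657).

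Hdac6, on the X chromosome, had the narrowest spread of all members. It was at -0.14, 0.12, 0.08 and 0.00 in wild type, 0.38, 0.21, 0.02 and -0.01 in the p27 knock-out, 0.12, -0.02, -0.05 and 0.00 in the stathmin knock-out and -0.19, 0.03 and -0.42 in the double knock-out. Arrays 1 and 3 of the double knock-out were the 2 lowest. The double knock-out differed from the p27 knock-out by -0.34 (SE 0.14, unadjusted p = 0.0268, adjusted p = 1), or by -0.22 without double knock-out 3, and from wild type by -0.21 (SE 0.14, adjusted p = 1). The latter was -0.09 without double knock-out 3, -0.32 without double knock-out 2 and -0.04 with median centring. Loss of stathmin averaged over p27 status gave -0.17 (SE 0.09, adjusted p = 1), or -0.11 either without double knock-out 3 or with median centring.

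The folding cofactors Tbca to Tbce, which assemble the tubulin dimer, included 4 with a spread below that of the median gene. Their differences from wild type ran from -0.32 to 0.08 in the p27, -0.43 to 0.16 in the stathmin and -0.43 to 0.18 in the double knock-out. The lowest value in each was that of Tbcc, whose spot on array 2 of the p27 knock-out was left out. None of the 5 had an unadjusted p under 0.05 in any comparison.

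Where the double knock-out was set against a single knock-out, between 1 and 4 members had an unadjusted p under 0.05. Against the p27 knock-out, 1 member, Hdac6, was lower at an unadjusted p under 0.05 (1.47% of genes) and none higher (1.53%), and no member's groups were apart (1.49% of genes higher, 1.84% lower). Against the stathmin knock-out, Tuba1a, Tubb2a and Tubb2b were higher (3 of 38, against 1.68% of genes) and Map2 lower (2.21%). Tuba1a and Tubb2b were also the 2 members whose double knock-out arrays all lay above the stathmin knock-out arrays, as did 2.35% of genes, and none lay below (3.07%). In the interaction, Tuba1a, Tubb2b, Map1b and Ttl were above 0 at that threshold (4 of 38, against 3.8% of genes) and none below (3.56%). For each of the 4, both single losses gave a mean below wild type and the double loss one nearer to it. An interaction above 0 favours such an order, so the order is not a separate result. Loss of stathmin averaged over p27 status gave 0 of 38 (0.653% of genes higher, 0.562% lower), the 3 smallest p being those of Hdac6, Tuba4a (-0.17, SE 0.10) and Tubb5. Loss of p27 averaged over stathmin status gave Tubb2a, Tuba4a and Tubb5 higher (1.15% of genes) and Map2 and Map7 lower (1.41%).

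As a group the members centred close to all genes. Their median difference from wild type was 0.04 in the p27 knock-out (all genes 0.01), -0.09 in the stathmin knock-out (all genes 0.01) and -0.01 in the double knock-out (all genes 0.00). In the stathmin knock-out 26 of 38 members were below 0, against 48.1% of all genes. With median centring in place of loess, the double knock-out median became 0.13, beside 0.09 for all genes.

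Other genes of the microtubule system were read from lists of further tubulins, gamma-tubulin complex members, modifying and severing enzymes, motors, stathmin relatives, tip and folding proteins. Of these 99 genes, 93 could be tested and 0 were called in any of the 8 comparisons. Stmn1 was among the 93 and was counted by its brighter probe, at -0.41 in the stathmin knock-out against wild type. Its other probe, 11.6-fold below wild type there, did not enter, so the count misses this known loss. At an unadjusted p under 0.05, 3 of the 93 were higher and 5 lower in the p27 knock-out, where 2.58 and 3.14% of all genes were. In the stathmin knock-out 5 were higher and 7 lower (1.97 and 2.79% of all genes), and in the double knock-out 0 higher and 2 lower (1.08 and 1.25%). The 17 other folding genes include subunits of the chaperonin that folds tubulin and actin, along with genes outside it. Of the 17, 12 were below wild type in the p27 knock-out, 12 in the stathmin knock-out and 8 in the double knock-out. The shares of all genes were 47.3, 48.1 and 50.7%. Cct6a differed from wild type by -0.77 in the p27 knock-out (SE 0.24, adjusted p = 0.796) and by -0.64 in the stathmin knock-out (SE 0.24, adjusted p = 0.907), and Cct5 by -0.50 and -0.53. Cct6a had an interaction of 1.23 (SE 0.36, adjusted p = 0.652). Dcx, the neuronal doublecortin, differed from wild type by -0.52 in the p27 knock-out (SE 0.16, adjusted p = 0.796). Map7d3, a relative of Map7, differed by 0.49 in the p27 knock-out and by -0.80 between double and p27 knock-out (SE 0.21, adjusted p = 1). Ttll11, of the family that adds glutamates to tubulin, gave -0.77 for loss of p27 averaged over stathmin status (SE 0.17, adjusted p = 1).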

How the data were processed

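Agilent 2-colour whole-genome arrays were scanned by the authors with Feature Extraction 9.1.3.1, and no background was subtracted, per the file headers. In the deposited scanner files each spot has an intensity per channel, quality flags and a log10 ratio of red over green. The authors' deposited value table holds log2 ratios whose normalization is not given in the sources used here. Its scale and direction were read from its agreement with the scanner ratios. In limma 3.58.1 (R 4.3.3) background was corrected by normexp (offset 50), loess was run within arrays with control spots at weight 0, outlier-marked spots were left out and spots of a probe averaged. Probes whose sample signal was well above background on 3 or more arrays of some genotype were tested, and the brightest of a gene's tested probes stood for it. Probes were named through RefSeq (GRCm38.p6) by accession, then symbol, then older symbol. A single model of 4 genotype means over all 15 arrays (11 residual degrees of freedom) gave 8 comparisons. Tests were two-sided, adjusted by Benjamini-Hochberg over all genes and called under 0.05; intervals are at 95%. Precision is limited by the number of arrays: over all genes the median half-width of an interval against wild type was 0.478 to 0.516. P-values measure the spread between the labelled replicates.

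The members, lists and tests were chosen with earlier results of these data known. Every member is described; values on each array are given for members past the threshold or, with fewer than 3 past it, for the 3 with the smallest p in each comparison. Mapre2, Tubb3, Tuba1c and Clip1 were added after their values were seen. The procedure was tested on simulated data. Alternatives covered background, normalization, channel, probe filter and choice, blocks, samples in the fit and each array left out; keeping outlier-marked spots was added after seeing the data. Slide position was fixed for each genotype, and the effects of the 2 cannot be told apart.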

Additional observations from a re-analysis of the deposited data

Results flagged for a closer look

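In the 107 groups of a member and genotype with 4 values, 9 held 1 array apart from the other 3 by Dixon's test, whose chance rate is about 1 in 20. In wild type these were Map1b on array 1 (1.05, others 0.24 to 0.33), Tubb2a on array 2 (0.41, others -0.04 to -0.03) and Tbcb on array 2 (-0.0904, others -0.38 to -0.37). On array 1 of the stathmin knock-out they were Clip2 (-0.0018, others -0.57 to -0.52), Dctn1 (0.11, others -0.17 to -0.12) and Tbcb (0.18, others -0.55 to -0.49). On array 2 of the stathmin knock-out, which also had the lowest mitosis mean (-1.55), they were Tubd1 (-1.04, others 0.12 to 0.29), Clasp1 (-0.59, others -0.02 to 0.04) and Tbcd (-0.79, others -0.06 to 0.01). No p27 knock-out array was apart in this way.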

How the results depend on the processing

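The count of members called was 0 in each of the 8 comparisons and stayed at 0 under all 28 or 29 alternatives run for each, including every array left out in turn (0 to 0). Over all genes these alternatives called 0 to 3, against 1 in the stathmin knock-out, 1 for averaged stathmin loss and 0 elsewhere. The 24 differences of the 3 members with the smallest p per comparison kept their sign in 659 of 659 values, and the lowest adjusted p among them was 0.233, for the Tuba1a interaction with a replicate block. That block gave 0 members in every comparison and changed no call. Among the 21 pairs sharing a replicate number, 12 had a residual correlation over 0.1 (range over the 21, -0.324 to 0.427). This count alone does not tell whether the numbers pair the samples, and the main model holds no block. A fit of only the genotypes compared could not be made for the interaction and the averaged losses. The median of the members moved in the double knock-out with median centring, to 0.13. Map1b was not in the fit of probes above background on all arrays. Dim probes such as Map1b, Map7 and Mapt are limited by signal over background. Averaging wild type 3 and 4 changed no call.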
